A study of Mus musculus with 38 samples.

Results

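Satellite repeats are described here, that is, the copies that the deposited repeat tables assign to the class Satellite. These were 37060 of the 3793386 repeat copies in the tables (0.977%), in 8 families. IMPB_01 had 23795 copies, MurSAT1 5722, CYRA11_Mm 4252, ZP3AR 2586, MMSAT4 624, GSAT_MM 51, SYNREP_MM 26 and CENSAT_MC 4. GSAT_MM and SYNREP_MM were set against the other satellites and against a non-specific antibody (IGG). CUT&RUN, in which an antibody tethers a nuclease that releases the DNA around its target, was run in mouse cells with antibodies to LAP2B, which sits in the inner nuclear membrane, to LMNB1 (lamin B1), and with IGG. LAP2B was mapped in 4 genotypes: wild type (WT), LBR knockout (LBRKO), knockout of the lamins Lmna, Lmnb1 and Lmnb2 (TKO), and knockout of these lamins and of LBR (QKO). Each genotype was sampled as naive embryonic stem cells (naive mESCs), kept in serum-free medium with CHIR-99021, PD0325901 and LIF, and as epiblast-like cells (EpiLCs) derived from them with FGF and activin A. Only WT cells, at both stages, were profiled with LMNB1 and IGG. Every group had 3 libraries, 36 in all, and 2 H3K9me3 samples were not analysed here.

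The lines limit what the genotypes model. WT and TKO were separate lines from littermates, LBRKO was made from the WT line with Cas9, and QKO was a single clone made from the TKO line. Per the study's methods, TKO cells carried an extra chromosome 8 and part of them had lost the Y chromosome, and part of the WT cells had lost the Y, some of these with extra chromosomes 6 and 8. The chromosomes of single copies were not used here, so their part in the values below was not tested. The study states in general that findings were repeated in independent experiments, but the labels do not say whether the 3 libraries of a group came from separate cultures, so p-values measure the spread between these samples only.

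Satellites are short units repeated head to tail. In the mouse, major satellite forms the pericentromeric heterochromatin that gathers into chromocentres, and minor satellite underlies the centromere itself, where CENP-A nucleosomes and the kinetochore assemble. Pericentromeric heterochromatin carries H3K9me3, and it commonly lies at the nuclear rim or around the nucleolus. LAP2B and LMNB1 lie at the rim, LAP2B in the inner nuclear membrane and LMNB1 in the lamina below it, and LBR is a membrane protein that binds heterochromatin. GSAT_MM is the repeat-library name for mouse major satellite. CENSAT_MC carries the table's label for a centromeric family, and CYRA11_Mm the label of a Y-chromosome family. Assembled genomes hold only a small part of the satellite arrays, so reads from many arrays are placed on few assembled copies.

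To show what such an array looks like, GRCm39, the build of the files, was scanned for tandem repeats at the unit length known for major satellite. Of the 20 arrays found, 5 lay inside Flg2 on chromosome 3, with 54.9% to 59.9% GC. The other 15 lay at the assembled start of chromosome 9, between bases 3000001 and 3038234. These spanned 19010 bases in all, the longest 3734, were AT-rich with 34.1% to 36.1% GC, and overlapped no GENCODE vM39 gene. The nearest gene was Mir101c, at bases 3038669 to 3038743. A unit from these arrays, at chr9:3031501-3031734 on the plus strand, intergenic and with 33.3% GC, is shown as an example of the DNA that GSAT_MM stands for, and the capitals mark its commonest word of 8 bases, which occurs 4 times.
major satellite unit: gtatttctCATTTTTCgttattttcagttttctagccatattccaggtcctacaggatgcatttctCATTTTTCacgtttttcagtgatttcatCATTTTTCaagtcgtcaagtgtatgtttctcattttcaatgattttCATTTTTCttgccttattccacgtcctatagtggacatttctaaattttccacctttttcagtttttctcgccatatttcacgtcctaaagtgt
That it is major satellite rests on the unit length and base composition, and no deposited value is tied to this unit.

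Each deposited value is the spike-in scaled signal of 1 copy, summed over the bins it touches and not divided by its length, so a long copy has a high value. A family's level is the mean over its copies. Its relative level is that mean divided by the median over the 1205 families with at least 10 copies in the same library, and this is called the median family below. Library depth was gauged by the whole reads summed over genes, which ran from 12028659 to 45689196. This sum leaves out reads outside genes and can count a read for several genes, so it is not the number of reads sequenced. GSAT_MM copies held 494194 to 2278864 reads per library and SYNREP_MM copies 58168 to 152656, so counting error was small beside the spread between libraries. A read in a bin that several copies touch counts for each of them. Of the 51 GSAT_MM copies, 10 had the same value in every library as a copy outside the satellites, as had 11 of 26 SYNREP_MM copies, 1855 of 2586 ZP3AR copies, 14836 of 23795 IMPB_01 copies, 3630 of 4252 CYRA11_Mm copies, 385 of 624 MMSAT4 copies, 3 of 4 CENSAT_MC copies and 312 of 5722 MurSAT1 copies. Values of these copies cannot be told apart from those of their neighbours.

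In every one of the 36 libraries GSAT_MM was the family with rank 1 and SYNREP_MM that with rank 2 among the 1205. In naive WT LAP2B libraries GSAT_MM, the major satellite, stood at 800 ± 189 times the median family (SD, n = 3) and SYNREP_MM at 170 ± 27.9. All other satellites lay within a few fold of the median family. The small centromeric family CENSAT_MC was at 2.26 ± 0.275, MMSAT4 at 1.14 ± 0.0282, IMPB_01 at 0.813 ± 0.0139, ZP3AR at 0.760 ± 0.0763, CYRA11_Mm at 0.758 ± 0.0163 and MurSAT1 at 0.305 ± 0.0207. The high families led with the non-specific antibody too: with IGG in naive WT cells GSAT_MM stood at 1588 ± 212, SYNREP_MM at 250 ± 55.5 and MurSAT1 at 0.347 ± 0.00564. GSAT_MM held 1.04% ± 0.230 of all repeat-table signal in naive WT LAP2B libraries, 0.676% ± 0.106 with LMNB1 and 1.94% ± 0.254 with IGG, although it has 51 of 3793386 copies.

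**Figure D1:**
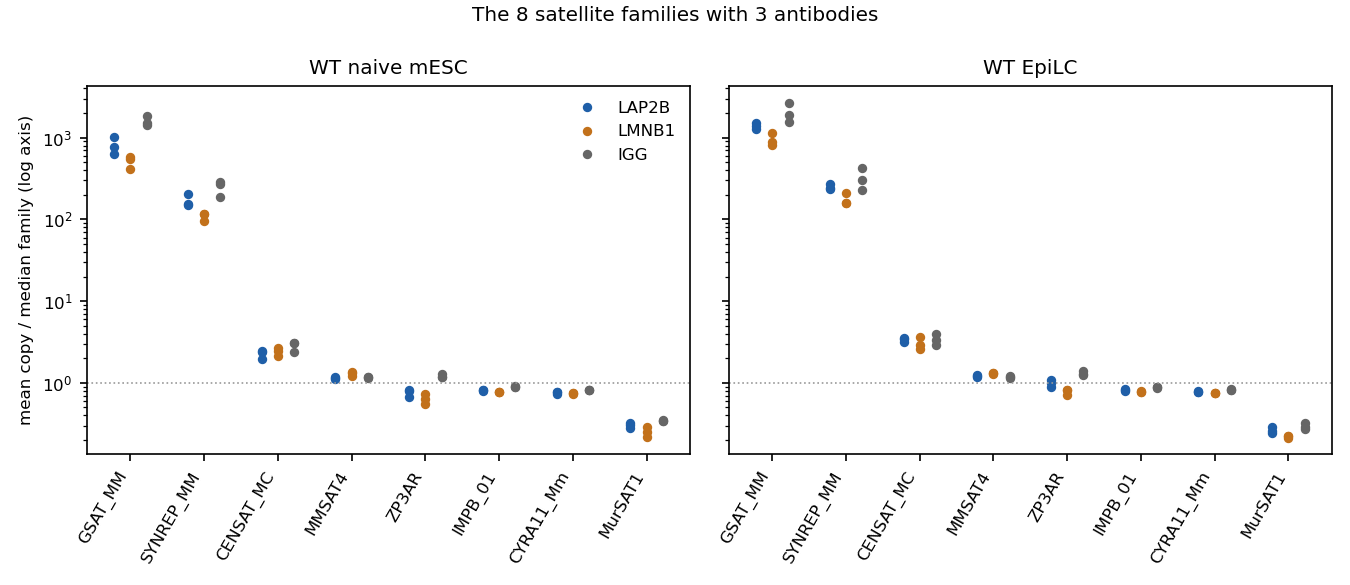
Relative level (mean over copies divided by the median family, log axis) of the 8 satellite families in WT naive mESCs (left) and WT EpiLCs (right), 1 point per library and 3 libraries per antibody; the dotted line marks the median family. GSAT_MM and SYNREP_MM stand far above the 6 other families with all antibodies, and the IGG libraries lie highest for GSAT_MM.

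The signal of the 2 high families sat on few copies. In naive WT LAP2B libraries the highest GSAT_MM copy held 48.3% of the family's signal and the 5 highest held 94.2%, and across the 12 groups these shares ran from 48.3% to 55.6% and from 93.8% to 94.7%. On the relative scale the copies fell in steps. The highest copy stood at 19876 times the median family, the seventh at 983 and the eighth at 63.4, and the 5 lowest-ranked copies lay between 0.378 and 0.709. SYNREP_MM behaved alike, with 63.4% of its signal on 1 copy and 96.6% on 5, and its highest copies stood at 2820, 681 and 576 times the median family before the fourth at 118. The mean of either family thus rested on a handful of copies. The median copy was far lower, at 2.17 in deposited units for GSAT_MM and 1.98 for SYNREP_MM, against 0.495 for IMPB_01.

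**Figure D2:**
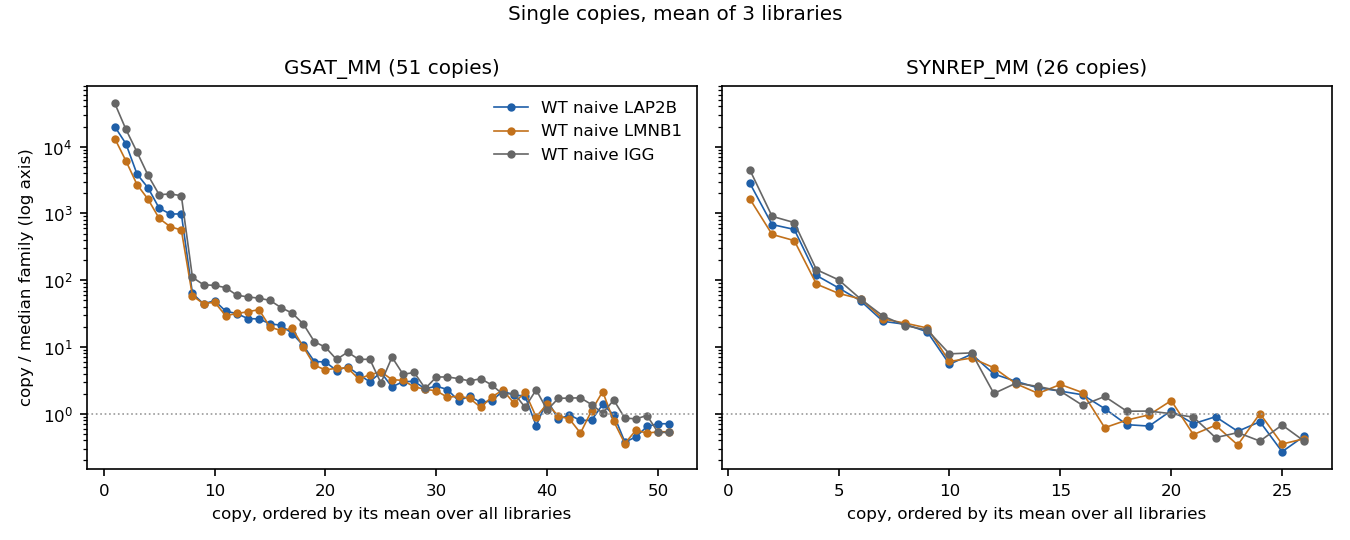
Level of each GSAT_MM copy (left) and SYNREP_MM copy (right) relative to the median family (log axis), mean of the 3 WT naive libraries of each antibody, against the rank of the copy by its mean over all libraries. The 7 highest GSAT_MM copies stand apart from the others, and along them the IGG line runs above the LAP2B and LMNB1 lines.

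The comparison with IGG asks whether GSAT_MM or SYNREP_MM is enriched at the nuclear rim beyond background. The answer turned with the scale. Relative to the median family, by the mean over copies, GSAT_MM was lower with LAP2B and with LMNB1 than with IGG at both stages, and SYNREP_MM was lower with LMNB1. In deposited spike-in units both families were above IGG. GSAT_MM was at 2.97 times the IGG level with LAP2B and 1.53 times with LMNB1 in naive WT cells, and at 1.68 and 1.04 times in EpiLCs. SYNREP_MM was at 4.02 and 2.03 times in naive cells and at 1.94 and 1.23 times in EpiLCs. The mean over all repeat copies was above IGG too. In naive WT cells it was 0.607, 0.939 and 0.673 with LAP2B against 0.141, 0.0955 and 0.150 with IGG. In WT EpiLCs it was 0.791, 0.526 and 0.753 against 0.187, 0.443 and 0.164. The LMNB1 libraries, from 0.518 to 0.693, also lay above IGG. A level above IGG on this scale was thus not particular to these families. The tables of the 3 antibodies were scaled separately, so these deposited levels are given without a test and the ratios within a library were compared. No test against IGG could pass 0.05, since 3 libraries against 3 allow no p below 0.1. In naive WT cells the relative levels of GSAT_MM were 760.2, 634 and 1006 in the LAP2B libraries, 415, 574 and 548 in the LMNB1 libraries and 1523, 1417 and 1825 in the IGG libraries. No LAP2B or LMNB1 library reached the lowest IGG library. In EpiLCs GSAT_MM stood at 1270.4, 1396 and 1516 with LAP2B, at 1136, 804 and 895 with LMNB1 and at 1901, 2677 and 1561 with IGG, again without overlap with IGG. The difference to IGG, as the mean log2 ratio of GSAT_MM to the median family, was -1.01 for LAP2B and -1.64 for LMNB1 in naive cells, and -0.52 and -1.09 in EpiLCs. Each had p = 0.1 in a two-sided exact permutation test and an adjusted p of 0.16 over the 16 tests against IGG.

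Set against the other satellites in place of the median family, GSAT_MM was again below IGG. Here the denominator was the median over MMSAT4, ZP3AR, IMPB_01, CYRA11_Mm and MurSAT1 in the same library. The log2 ratio was 9.97 ± 0.267 with LAP2B, 9.41 ± 0.233 with LMNB1 and 10.78 ± 0.204 with IGG in naive WT cells (SD, n = 3). The LAP2B difference to IGG was -0.81 and the LMNB1 difference -1.37, each without overlap (exact permutation p = 0.1, adjusted p = 0.16). In EpiLCs the LMNB1 difference was -0.90, without overlap (exact p = 0.1), whereas the LAP2B difference of -0.42 had overlapping libraries (exact p = 0.2, adjusted p = 0.25).

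SYNREP_MM lay closer to IGG. Its relative levels in naive WT cells were 152, 156 and 202 with LAP2B, 96.0, 115.01 and 114.97 with LMNB1 and 288, 186 and 275 with IGG. The lowest IGG library thus fell within the LAP2B range, while the LMNB1 libraries lay below it. In EpiLCs the values were 237, 240.1 and 274 with LAP2B, 209, 157 and 159 with LMNB1 and 303, 421 and 228 with IGG. The log2 difference to IGG over the median family was -0.54 for LAP2B (exact permutation p = 0.2, n = 3) and -1.18 for LMNB1 (exact p = 0.1) in naive cells. It was -0.30 (exact p = 0.4) and -0.83 (exact p = 0.1) in EpiLCs. All 8 SYNREP_MM differences turned positive, to between 0.28 and 0.56, when the median over copies replaced the mean in this family and in the families it was divided by. Copy by copy over the median family of means, the median over SYNREP_MM copies of the log2 ratio to IGG was -0.093 with LAP2B and -0.22 with LMNB1 in naive cells. In EpiLCs it was 0.056 and -0.098. Copy by copy the sign thus differed from that with the median over copies, except for LAP2B in EpiLCs. There both were positive, whereas the mean over copies gave a negative difference. Over the other satellites the LAP2B difference in EpiLCs, -0.20 (exact p = 0.6), turned to 0.019 without IGG EpiLC replicate 2.

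The lower relative level of GSAT_MM was seen in single copies as well. In naive WT cells 33 of 51 GSAT_MM copies had all LAP2B libraries below all IGG libraries on the relative scale and 2 above, where 16.6% of all repeat copies lay below and 10% above. With LMNB1 33 of 51 lay below and 3 above (23.2% and 14.2% of all copies). In EpiLCs 20 of 51 lay below with LAP2B and 27 of 51 with LMNB1, against 9.75% and 19.0% of all copies, and none lay above (8.05% and 13.9% of all copies). Of the 26 SYNREP_MM copies 2 lay below and 3 above with LAP2B in naive cells, and none below and 2 above in EpiLCs. With LMNB1 7 lay below and 4 above in naive cells, and 5 and 5 in EpiLCs. Copies of 1 family can share reads, so they are not independent of each other.

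Other satellites differed from IGG by smaller factors than GSAT_MM did. With LAP2B at both stages, though, ZP3AR lay farther below IGG than SYNREP_MM. Of the 7 families with at least 10 copies, 5 had all naive WT LAP2B libraries below all IGG libraries and none above, where 31.8% of all families lay below and 31.0% above. With LMNB1 these were 6 below and 1 above in naive cells (35.8% and 32.0% of all families), and likewise 6 and 1 in EpiLCs (32.6% and 33.3%). With LAP2B in EpiLCs 4 lay below and none above (21.3% and 25.9% of all families). ZP3AR showed the largest gap among the 5 more abundant families, at 0.627 of the IGG level with LAP2B and 0.527 with LMNB1 in naive cells. With LAP2B in naive cells 1019 of its 2586 copies lay below IGG without overlap and 69 above, where 16.6% and 10% of all copies did. The MMSAT4 level with LMNB1 was above IGG, by a factor of 1.11 in naive cells.

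**Figure D3:**
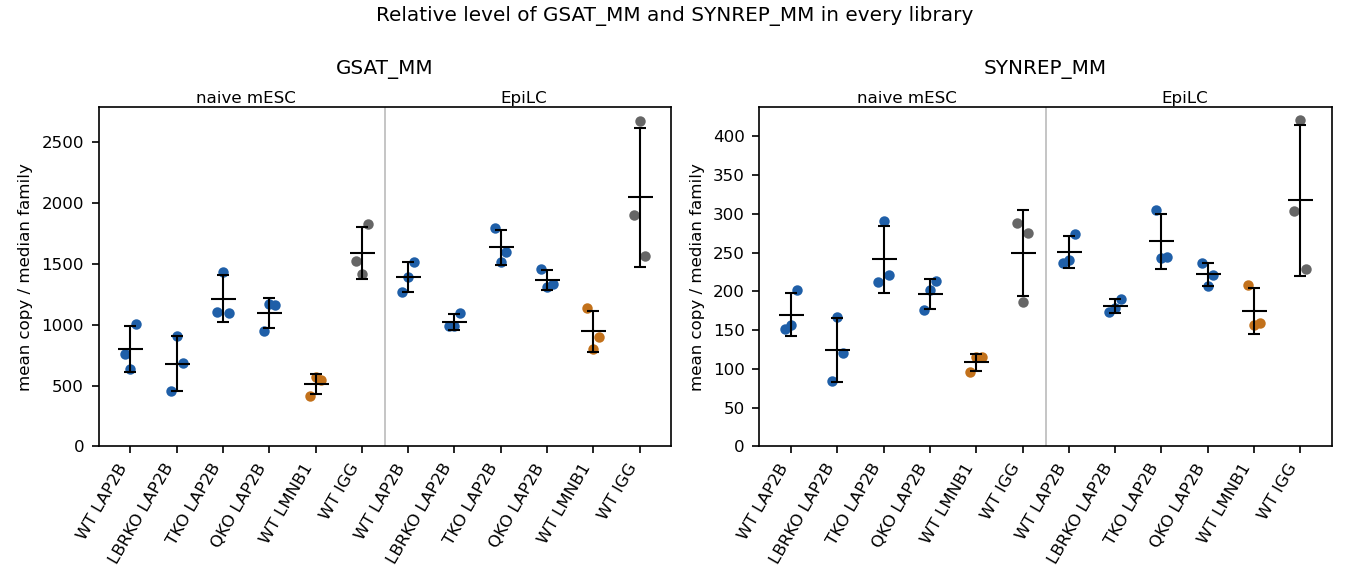
Relative level (mean over copies divided by the median family) of GSAT_MM (left) and SYNREP_MM (right) in each of the 36 libraries, by genotype and antibody, naive mESCs to the left of the grey line and EpiLCs to the right; bars give mean and SD of 3 libraries. All WT LAP2B and LMNB1 libraries lie below the IGG libraries of their stage for GSAT_MM, and EpiLC libraries of WT LAP2B lie above naive ones.

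From naive cells to EpiLCs, GSAT_MM rose in LAP2B signal relative to other repeats. As LAP2B signal in EpiLCs also lay outside lamin B1 domains, this is not a measure of rim contact alone. The relative level of GSAT_MM in WT LAP2B libraries rose from 800 ± 189 to 1394 ± 123, a change of 0.82 ± 0.21 on the log2 scale (SE; limma adjusted p = 0.010), and its libraries did not overlap between stages. This was the highest change of all 1205 families, of which 27.6% were called, 14.2% higher. SYNREP_MM rose from 170 ± 27.9 to 250 ± 20.6, by 0.57 ± 0.19 (limma adjusted p = 0.031), with rank 3, and ZP3AR rose by 0.35 ± 0.079 (limma adjusted p = 0.0046), with rank 6. The remaining families, IMPB_01, CYRA11_Mm, MMSAT4 and MurSAT1, had changes from -0.15 to 0.078 and were not called. The median over the 7 satellites was 0.078 and that over all families -0.0012. On the spike-in scale, the deposited values as such, the changes of GSAT_MM (0.68), SYNREP_MM (0.43) and ZP3AR (0.23) had the same sign, but 0 of 7 satellites and 0 of 1205 families (0.0%) were called by limma, with 0 satellites at an unadjusted p under 0.05.

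Single copies moved with their family mean. Between naive and EpiLC WT LAP2B libraries, 32 of 51 GSAT_MM copies lay higher without overlap and none lower, where 10.5% of all copies lay higher and 7.14% lower. For SYNREP_MM these were 13 of 26 higher and 1 lower. LMNB1 showed changes of similar size, 0.88 ± 0.23 for GSAT_MM (rank 1 of 1205) and 0.68 ± 0.17 for SYNREP_MM (rank 2), with 32 of 51 and 13 of 26 copies higher without overlap (10% of all copies). In limma neither passed over all families (adjusted p = 0.15 and 0.145), 0 of 7 satellites being called where 0.913% of all families were, and 3 satellites had an unadjusted p under 0.05. With IGG the changes were 0.34 ± 0.32 and 0.33 ± 0.31 (adjusted p = 0.63 and 0.64), again with 0 of 7 called (0.249% of all families), 0 with an unadjusted p under 0.05, and 11 of 51 GSAT_MM and 6 of 26 SYNREP_MM copies higher (5.46% of all copies). The LAP2B and IGG changes come from separate fits, and whether the LAP2B change differs from that of IGG was not tested. The LAP2B call for GSAT_MM was lost without WT naive replicate 2 (0.67, adjusted p = 0.068), where 1 of 7 satellites was called, and with the median over copies (0.43, adjusted p = 0.19), and with only the WT LAP2B libraries in the model 0 of 7 were called (adjusted p = 0.072 for GSAT_MM). That for SYNREP_MM was lost without WT naive replicate 1 (0.49, adjusted p = 0.11) or 2 (0.51, adjusted p = 0.12) and without WT EpiLC replicate 2 (0.60, adjusted p = 0.077) or 3 (0.50, adjusted p = 0.10).

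The genotypes were compared with WT on 2 scales because the 2 answer different questions. The spike-in scale follows the total LAP2B signal: its median family was lower than in WT by 1.15 log2 units in naive TKO, by 1.99 in naive QKO, by 0.47 in EpiLC TKO and by 1.17 in EpiLC QKO, and moved by -0.18 and -0.021 in naive and EpiLC LBRKO. The relative scale takes this shift out and shows how satellites moved against other repeats. On the spike-in scale 5 of 7 satellites fell in naive TKO cells (99.7% of all families were called, 99.6% lower), 6 of 7 in naive QKO cells (99.8%) and 7 of 7 in EpiLC QKO cells (99.9%). With limma, 0 of 7 were called in naive LBRKO (9.21% of families, 2 satellites at an unadjusted p under 0.05), in EpiLC LBRKO (0.0%, 0 at an unadjusted p under 0.05) and in EpiLC TKO (15.6%, 1 at an unadjusted p under 0.05). These counts rose to 1 in naive LBRKO without WT naive replicate 1, and in EpiLC TKO to 5 without TKO EpiLC replicate 1 and to 4 without WT EpiLC replicate 2. In naive QKO cells GSAT_MM fell from 560.2 ± 102 to 194 ± 18.2 in deposited units and SYNREP_MM from 121 ± 28.5 to 35.0 ± 3.55. These levels were near those with IGG in naive WT cells, 189 and 30.1, which were scaled separately. In EpiLC QKO cells GSAT_MM and SYNREP_MM were at 390 and 63.3, below 537 and 83.8 with IGG in WT EpiLCs. The satellite not called in naive QKO cells was ZP3AR, with a change of -0.29 ± 0.21 (adjusted p = 0.17).

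**Figure D4:**
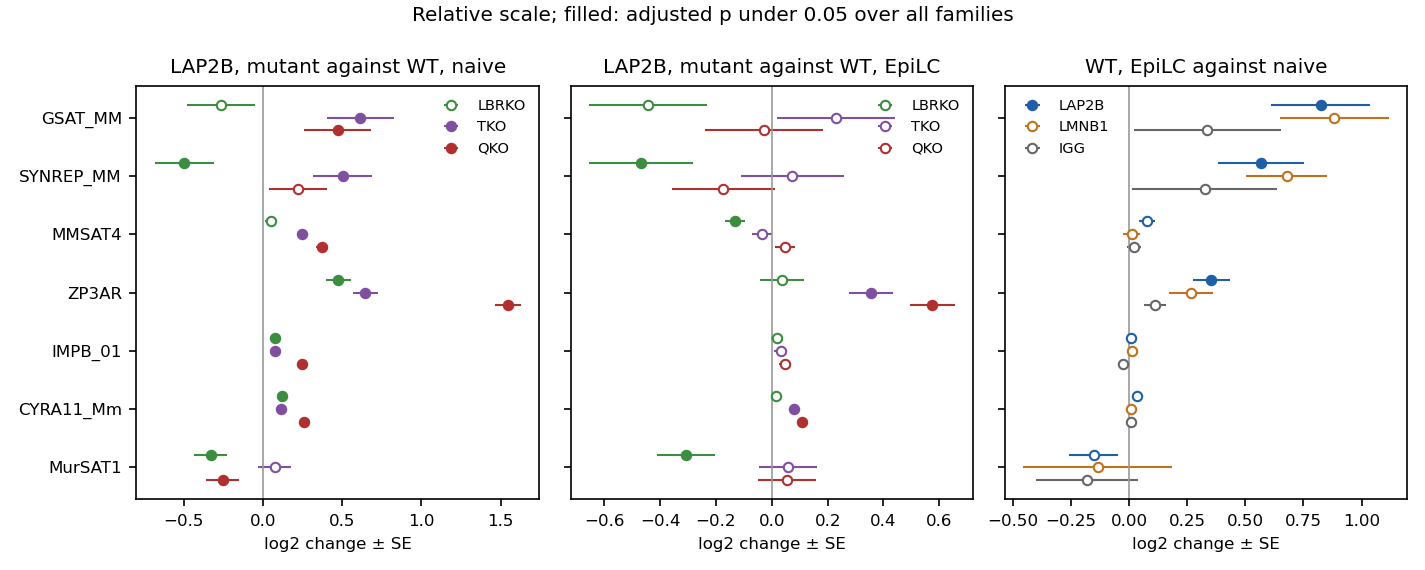
Log2 change ± SE of the relative level of 7 satellite families, LAP2B in each mutant against WT in naive mESCs (left) and EpiLCs (middle) and WT EpiLC against naive for each antibody (right); filled points passed an adjusted p under 0.05 over 1205 families. ZP3AR in naive QKO cells lies farthest from 0, at 1.55. On the spike-in scale every TKO and QKO change is below 0 in the main fits, and not all of them were called.

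In naive LBRKO cells SYNREP_MM and MurSAT1 were lower against other repeats, and ZP3AR was higher. The relative level of SYNREP_MM was 84.5, 121 and 167 in the naive LBRKO libraries against 152, 156 and 202 in WT, so that 1 LBRKO library overlapped with WT. Its log2 change was -0.50 ± 0.19 (SE, limma adjusted p = 0.022), and 17 of 26 copies lay below WT without overlap and 1 above, where 17.9% and 20.1% of all copies did. MurSAT1 fell from 0.309, 0.283 and 0.324 to 0.206, 0.264 and 0.200, by 0.33 ± 0.10 (limma adjusted p = 0.0081). For GSAT_MM the libraries read 453, 907 and 681 against 760.2, 634 and 1006 in WT, which overlap, and the change of -0.26 ± 0.21 was not called (adjusted p = 0.27). ZP3AR rose by 0.48 ± 0.079, and CYRA11_Mm and IMPB_01 rose by 0.12 ± 0.017 and 0.075 ± 0.022, the latter pair having changes of -0.037 and -0.085 on the spike-in scale. In all 5 of 7 satellites were called, 3 higher and 2 lower, where 72.8% of all families were, 31.0% higher and 41.8% lower. The SYNREP_MM call was lost without LBRKO naive replicate 1 (-0.25, adjusted p = 0.18) or WT naive replicate 3 (-0.37, adjusted p = 0.11), and GSAT_MM was called without LBRKO naive replicate 2 (-0.50, adjusted p = 0.032) and stood at 0.00043 without replicate 1. With only the 2 groups in the model neither SYNREP_MM (adjusted p = 0.14) nor MurSAT1 (adjusted p = 0.27) was called.

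In EpiLC LBRKO cells the same direction was seen for the 2 high families. SYNREP_MM stood at 173, 178 and 191 against 237, 240.1 and 274 in WT, without overlap, and fell by 0.47 ± 0.19 (limma adjusted p = 0.044). GSAT_MM stood at 986, 986 and 1099.9 against 1270.4, 1396 and 1516, also without overlap, with a change of -0.44 ± 0.21 that missed the threshold (adjusted p = 0.093). Of the 51 GSAT_MM copies 29 lay below WT without overlap and 1 above, and of the 26 SYNREP_MM copies 15 and 1, where 11.4% and 11.6% of all copies did. Both families had ranks near the bottom of the 1205, at 1197 for GSAT_MM and 1201 for SYNREP_MM. MurSAT1 fell by 0.31 ± 0.10 (adjusted p = 0.020) and MMSAT4 by 0.13 ± 0.035 (adjusted p = 0.0046), so 3 of 7 satellites were called, all lower, where 47.6% of all families were, 28.7% of all families lower. The SYNREP_MM call was lost on leaving out any 1 of the 6 libraries (-0.51 to -0.40, adjusted p = 0.063 to 0.13), and the MurSAT1 call without LBRKO EpiLC replicate 1 or 2 or WT EpiLC replicate 1 or 3 (adjusted p = 0.056 to 0.087), so that without any of these 4 libraries 1 of 7 satellites was called. With only the 2 groups in the model GSAT_MM was called (adjusted p = 0.015).

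In naive TKO cells, which lack the lamins, most satellites rose on the relative scale, while on the spike-in scale all 7 changes were below 0. GSAT_MM had relative levels of 1107, 1436 and 1097 in the TKO libraries, all above the WT libraries, a change of 0.62 ± 0.21 (limma adjusted p = 0.020) with rank 5. SYNREP_MM stood at 212, 290.4 and 221, also all above WT, with a change of 0.50 ± 0.19 (adjusted p = 0.029) and rank 10. These GSAT_MM libraries lay within or below the range of the naive WT IGG libraries given above. Those of SYNREP_MM overlapped with the IGG range. ZP3AR rose from 0.760 ± 0.0763 to 1.24 ± 0.0541, by 0.65 ± 0.079 (adjusted p = 3.5e-06), with rank 4, and MMSAT4 rose by 0.25 ± 0.035 (adjusted p = 2e-05). CYRA11_Mm and IMPB_01 rose by 0.11 ± 0.017 and 0.078 ± 0.022, and MurSAT1 had 0.074 ± 0.10 (adjusted p = 0.575). In all 6 of 7 satellites were called, all higher, where 54.0% of all families were called and 33.3% called higher, and their median change was 0.25 against 0.017 for all families. Of the single copies, 25 of 51 GSAT_MM and 12 of 26 SYNREP_MM lay above WT without overlap, where 15.0% of all copies did.

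The naive TKO counts changed with the scaling. Divided by the mean copy instead of the median family, which lowers the median family by 0.12, the count fell from 6 to 2 (ZP3AR and MMSAT4), GSAT_MM had 0.50 (adjusted p = 0.060) and SYNREP_MM 0.38 (adjusted p = 0.072). Both calls were also lost without TKO naive replicate 2 (0.49 and 0.36, adjusted p = 0.097 and 0.14), WT naive replicate 1 (0.59 and 0.43, adjusted p = 0.053 and 0.10) or WT naive replicate 2 (0.46 and 0.45, adjusted p = 0.11 and 0.094), and with only the 2 groups in the model (adjusted p = 0.084 and 0.076). With the median over copies the GSAT_MM call was lost as well (0.33, adjusted p = 0.18). CYRA11_Mm had 0.0079 with the mean-copy scaling (adjusted p = 0.64).

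In EpiLC TKO cells GSAT_MM stood at 1795, 1512 and 1598, which overlaps with WT, with a change of 0.23 ± 0.21 (adjusted p = 0.44). SYNREP_MM stood at 305, 243 and 245, with 0.074 ± 0.19 (adjusted p = 0.78). ZP3AR rose by 0.36 ± 0.079 (limma adjusted p = 0.0020) and CYRA11_Mm by 0.079 ± 0.017 (adjusted p = 0.0016), the 2 of 7 satellites that were called, where 33.0% of all families were, 14.6% higher. On the spike-in scale these changes were -0.080 and -0.34, not called.

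The quadruple knockout showed the widest spread among satellites. ZP3AR had relative levels of 2.63, 2.13 and 2.47 in naive QKO libraries against 0.789, 0.673 and 0.817 in WT, a 3.17-fold difference (limma log2 change 1.55 ± 0.079, adjusted p = 2e-12) and rank 3 of 1205. Of its 2586 copies, 1706 lay above WT without overlap and 187 below, where 25.9% and 22.6% of all copies did. These libraries also lay above the naive IGG libraries, which stood at 1.21 ± 0.0542. On the spike-in scale ZP3AR was lower by 0.29 and not called, against -1.99 for the median family. Over the alternatives this ZP3AR change ran from -0.40 to 0.058, with 1 change of sign, and it was called in none. MMSAT4 rose by 0.37 ± 0.035, from 1.14 ± 0.0282 to 1.51 ± 0.0714, CYRA11_Mm by 0.26 ± 0.017 and IMPB_01 by 0.25 ± 0.022, while MurSAT1 fell by 0.25 ± 0.10 (adjusted p = 0.032). Each of these 4 fell on the spike-in scale. With libraries divided by the mean copy the changes of CYRA11_Mm and IMPB_01 came to 0.021 and 0.0041 and were not called (adjusted p = 0.19 and 0.85).

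For GSAT_MM and SYNREP_MM the naive QKO libraries overlapped with WT. GSAT_MM stood at 952, 1167 and 1164, so that 1 library overlapped, and rose by 0.47 ± 0.21 (limma adjusted p = 0.048). The call was lost with the replicate number as a block (adjusted p = 0.053), and naive QKO against WT was the 1 comparison of 28 group pairs in which all same-numbered libraries correlated over 0.1. SYNREP_MM stood at 176, 202 and 213, overlapping with WT, with 0.22 ± 0.19 (adjusted p = 0.27). Of the single copies, 11 of 51 GSAT_MM (21.6%) lay above WT without overlap and 3 below, and 4 and 6 of 26 SYNREP_MM. Of all copies 25.9% lay above and 22.6% below, so the GSAT_MM copies did not exceed that share. In all 6 of 7 satellites were called, 5 higher and 1 lower, where 80.8% of all families were, 38.2% higher and 42.7% lower. With libraries divided by the mean copy the count fell to 3, namely 2 higher and 1 lower, GSAT_MM had 0.20 (adjusted p = 0.40) and SYNREP_MM turned to -0.047. The GSAT_MM call was also lost with only the 2 groups in the model (adjusted p = 0.11), without the highest copy of each family (0.42, adjusted p = 0.079), and without QKO naive replicate 2 or 3 (0.42, adjusted p = 0.12 either way), WT naive replicate 1 (0.45, adjusted p = 0.10) or WT naive replicate 2 (0.32, adjusted p = 0.21). The MurSAT1 call was lost without QKO naive replicate 1 or 3 or WT naive replicate 1 or 3 (adjusted p = 0.057 to 0.087).

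In EpiLC QKO cells neither of the 2 high families was called against WT. GSAT_MM stood at 1458, 1306 and 1335, with a change of -0.027 ± 0.21 (adjusted p = 0.93), and SYNREP_MM at 236, 207 and 221.5, with -0.17 ± 0.19 (adjusted p = 0.46, rank 1036). The SYNREP_MM libraries all lay below WT, without overlap, and 8 of 26 copies did so and 2 lay above, where 10.3% and 15.0% of all copies did. ZP3AR rose by 0.58 ± 0.079 (limma adjusted p = 1e-05), from 0.999 ± 0.0954 to 1.53 ± 0.0741 and again with rank 3, and 1010 of its 2586 copies lay above WT without overlap, where 15.0% of all copies did. CYRA11_Mm rose by 0.11 ± 0.017 (adjusted p = 3.9e-05). These were the 2 of 7 satellites called on the relative scale, where 49.3% of all families were, 22.6% higher, and both fell on the spike-in scale. The limma call of ZP3AR there was lost where the spike-in factor was applied to reads (-0.044, adjusted p = 0.80). It was also lost without QKO EpiLC replicate 3 (-0.46, adjusted p = 0.062) and without WT EpiLC replicate 1 (-0.46, adjusted p = 0.051) or 3 (-0.37, adjusted p = 0.12). The change on the relative scale differed between the stages, by an interaction term in limma, for 3 of 7 satellites in LBRKO, 1 in TKO and 4 in QKO, where 26.7%, 18.6% and 53.8% of all families were called.

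**Figure D5:**
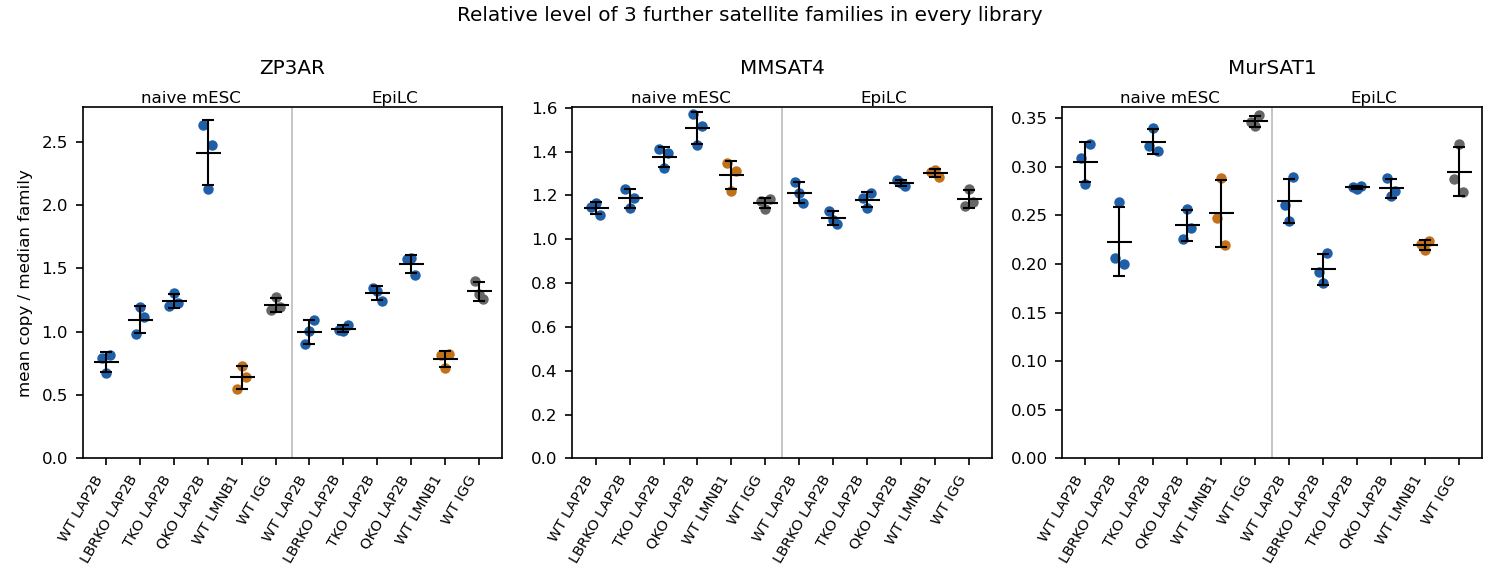
Relative level (mean over copies divided by the median family) of ZP3AR, MMSAT4 and MurSAT1 in each of the 36 libraries, by genotype and antibody, naive mESCs to the left of the grey line and EpiLCs to the right; bars give mean and SD of 3 libraries. ZP3AR climbs from WT over LBRKO and TKO to 2.41 in naive QKO cells. On the spike-in scale its QKO level is lower than in WT, in naive cells by a change that was not called.

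IMPB_01 and CYRA11_Mm had small changes with little spread between libraries. In naive cells IMPB_01 read 0.814, 0.798 and 0.825 in WT. The LBRKO libraries read 0.837, 0.890 and 0.858, the TKO libraries 0.853, 0.889 and 0.848, and the QKO libraries 1.004, 0.952 and 0.990, so every mutant library lay above WT. In EpiLCs it read 0.806, 0.821 and 0.831 for WT, 0.832, 0.826 and 0.838 for LBRKO, 0.849, 0.836 and 0.834 for TKO, and 0.856, 0.852 and 0.841 for QKO, where LBRKO overlapped with WT. CYRA11_Mm read 0.763, 0.740 and 0.772 for naive WT, 0.834, 0.834 and 0.830 for LBRKO, 0.833, 0.828 and 0.825 for TKO, and 0.948, 0.903 and 0.933 for QKO. All of the mutant libraries again lay above WT. In EpiLCs it stood at 0.772, 0.789 and 0.775 for WT, 0.784, 0.791 and 0.787 for LBRKO, 0.838, 0.826 and 0.821 for TKO, and 0.849, 0.843 and 0.851 for QKO. With the median over copies neither family was called in any of these genotype comparisons on the relative scale. The direction turned for IMPB_01 with the mean-copy scaling in naive TKO (-0.029), EpiLC TKO and EpiLC QKO cells, and with the median over copies in EpiLC LBRKO (-0.025), TKO (-0.064) and QKO cells (-0.102). For CYRA11_Mm it turned with the median over copies in EpiLC LBRKO (-0.055) and TKO cells (-0.0081).

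MurSAT1 was the lowest satellite throughout. Besides the naive WT and LBRKO values above, it read 0.322, 0.340 and 0.317 in naive TKO and 0.226, 0.257 and 0.237 in naive QKO libraries. The QKO libraries lay below WT and the TKO libraries overlapped with it. In EpiLCs it read 0.260, 0.244 and 0.289 for WT, 0.192, 0.180 and 0.212 for LBRKO, 0.279, 0.277 and 0.280 for TKO, and 0.288, 0.270 and 0.275 for QKO, so only the LBRKO libraries lay apart from WT. Its 3 calls, in naive LBRKO, naive QKO and EpiLC LBRKO cells, were lost with the median over copies (adjusted p = 0.27, 0.19 and 0.22), with families of any size in the fit (0.13, 0.23 and 0.20) and with only the 2 groups in the model (0.27, 0.53 and 0.054). Of its 5722 copies 635 lay below WT without overlap and 84 above in naive LBRKO, where 17.9% and 20.1% of all copies did. In naive QKO 527 lay below and 109 above (22.6% and 25.9% of all copies). In EpiLC LBRKO these were 613 and 100 (11.4% and 11.6%). The share of its copies below WT, 11.1%, 9.21% and 10.7% in this order, thus did not exceed that of all copies. The share above was 1.47%, 1.90% and 1.75%.

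CENSAT_MC, the centromeric family, has 4 copies and entered only a fit that takes in families of any size. Its relative level in naive cells was 2.26 ± 0.275 for WT cells, 1.21 ± 0.147 for LBRKO, 3.42 ± 0.221 for TKO and 1.98 ± 0.140 for QKO, so LBRKO and TKO lay on opposite sides of WT. The log2 changes in that fit were -0.84 for LBRKO (limma adjusted p = 5.5e-08), 0.58 for TKO (adjusted p = 2.6e-05) and -0.18 for QKO (adjusted p = 0.058). In EpiLCs LBRKO was at 2.10 ± 0.0745 against 3.38 ± 0.222 in WT (-0.66, adjusted p = 7.6e-06), while TKO and QKO, at 3.52 ± 0.0855 and 3.36 ± 0.194, were not called. Of its 4 copies 3 share their values with another satellite copy and 3 with copies outside the satellites, so its values cannot be told apart from theirs. Of the 26 SYNREP_MM copies 3 also share their values with another satellite copy. A likeness between these 2 families is thus not independent. On the spike-in scale the naive TKO change was -0.52 (adjusted p = 0.019), opposite in sign.

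Across the 24 LAP2B libraries the relative level of GSAT_MM was most like that of SYNREP_MM (Pearson r = 0.954), followed by the internal regions of the endogenous retroviruses MYSERV6-int (0.884) and IAPEz-int (0.832). SYNREP_MM was most like GSAT_MM, RMER13A1 (0.944) and MYSERV6-int (0.931). ZP3AR was most like families outside the satellites, namely MTC (0.994), UCON88 (0.986) and MIR1_Amn (0.985), so its course was not particular to satellites. These libraries fall into 8 groups and share 1 scaling, so the values are a description. Copies with the same values as a copy outside the satellites were 10 of 51 in GSAT_MM, 11 of 26 in SYNREP_MM and 1855 of 2586 in ZP3AR. Whether those outside copies belong to the families named here was not tested, so the likenesses may not be independent. In naive TKO cells 15 of 15 Alu and 5 of 5 B2 families were called higher on the relative scale, and 17 of 147 L1 families higher and 77 lower. Of all 1205 families 401 were called higher there and 250 lower. In naive LBRKO cells 34 of 278 ERVK families were called higher and 189 lower, against 31.0% and 41.8% of all families. In naive QKO cells 121 of 294 DNA transposon families were called higher and 103 lower, against 38.2% and 42.7% of all families. These classes are given for different genotypes and are not set against each other. The median change over the 15 Alu families in naive QKO cells was 0.90, against 1.55 for ZP3AR and 0.47 for GSAT_MM. On the spike-in scale both satellites were below 0, ZP3AR without being called.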

How the data were processed

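CUT&RUN signal was analysed in 36 libraries in 12 groups of 3. By the account in its methods, the authors mapped reads to mm39 (Bowtie2 2.3.5.1), used SAMtools 1.10 to retain proper pairs and primary alignments and to drop duplicates, mitochondrial reads and unassembled contigs, and computed binned coverage with deepTools as RPKM multiplied by a yeast spike-in factor, keeping blacklisted regions for repeats. The deposited signal of a repeat copy is a sum over bins and is not divided by length. The methods name wider bins than the steps in the values do. How reads that match several copies were placed is not given in the sources used here. Within each library nearly all repeat values were whole multiples of 1 step, within 0.05 of a step.

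A family's level was its mean over copies, and a family was a name with its family and class label. On the log2 scale a pseudocount of 0.1 times the median family was added, so low families understate their change. limma 3.58.1 (R 4.3.3), with a trend and empirical Bayes, was fitted to 1205 families with at least 10 copies: 24 LAP2B libraries in 1 model, LMNB1 and IGG in models of their own. Benjamini-Hochberg adjustment ran over all 1205 families, and an adjusted p under 0.05 was called. LAP2B and LMNB1 were set against IGG by within-library log2 ratios with two-sided exact permutation tests (scipy 1.17.1). A family or copy did not overlap where all libraries of a group lay on 1 side of all of the other. The limma step was tested on simulated data. Arrays were found from windows of 500 bases with at least 75% identity to the next unit.

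The members, lists and tests were chosen with earlier results of these data known. Text names every satellite family; GSAT_MM, SYNREP_MM and the 3 families with most copies have values in every LAP2B library, and others where they passed the threshold. Alternatives were other pseudocounts, filters, scalings and averages, a replicate block and leaving out each library. A z score table the authors deposited was not used.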

Additional observations from a re-analysis of the deposited data

Results flagged for a closer look

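The LAP2B change against WT on the relative scale differed between the stages for 4 satellite families, by an interaction term in limma over 1205 families (EpiLC change minus naive change). All 8 differences that were called were negative. For ZP3AR the difference was -0.44 in LBRKO and -0.97 in QKO (adjusted p = 0.0081 and 1.5e-06). For MMSAT4 it was -0.18 in LBRKO, -0.28 in TKO and -0.32 in QKO (adjusted p = 0.012, 0.0012 and 3.4e-05). For CYRA11_Mm it was -0.11 in LBRKO and -0.15 in QKO (adjusted p = 0.0035 and 4.3e-05), and for IMPB_01 it was -0.20 in QKO (adjusted p = 4.1e-05). Among all families 26.7% were called for this difference in LBRKO, 18.6% in TKO and 53.8% in QKO. For GSAT_MM it was -0.18, -0.39 and -0.50 in LBRKO, TKO and QKO (adjusted p = 0.69, 0.43 and 0.17), and for SYNREP_MM 0.029, -0.43 and -0.40 (adjusted p = 0.95, 0.30 and 0.21), none called. MurSAT1 had a difference of 0.31 in QKO, the opposite sign, which was not called (adjusted p = 0.085) but was with libraries divided by the mean copy (0.45, adjusted p = 0.0075). With that scaling the QKO difference of CYRA11_Mm turned to 0.029 and was not called, nor was that of IMPB_01 (-0.017), and in LBRKO those of CYRA11_Mm (-0.050, adjusted p = 0.071) and MMSAT4 (-0.12, adjusted p = 0.057) were not called either. With the median over copies ZP3AR kept its calls in LBRKO and QKO, and the other 6 differences were not called (MMSAT4 in TKO, adjusted p = 0.19). The cause of these differences was not tested.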

How the results depend on the processing

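Results were recomputed under 16 kinds of alternative or fewer, changing 1 choice at a time. The 8 differences of GSAT_MM to IGG kept their sign under each of them. For SYNREP_MM, the median over copies turned all 8 positive: over the other satellites 0.49 (naive LAP2B), 0.55 (EpiLC LAP2B), 0.56 (naive LMNB1) and 0.51 (EpiLC LMNB1), and over the median family 0.28, 0.52, 0.30 and 0.31. Leaving out 1 library moved the EpiLC LAP2B difference over the other satellites between -0.40 and 0.019. The cause of these changes was not tested.

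The changes in the number of satellite families called that were large in proportion were as follows, and smaller ones are not all listed. With the lowest 10% of families left out, 4 satellites remain to be tested, and the count went from 5 to 2 (naive LBRKO, relative), 5 to 1 and 6 to 3 (naive TKO and QKO, spike-in), 6 to 3 (naive QKO, relative), 2 to 1 (EpiLC TKO and QKO, relative), 7 to 4 (EpiLC QKO, spike-in) and 4 to 2 (stage difference of QKO). With the median over copies it went to 2, 3 and 3 in naive LBRKO, TKO and QKO and to 1 in each EpiLC genotype on the relative scale, to 1 in naive LBRKO and EpiLC TKO on the spike-in scale, and to 1, 0 and 1 for the stage differences of LBRKO, TKO and QKO. With libraries divided by the mean copy it went to 2 in naive TKO, 3 in naive QKO and 1 for the stage difference of LBRKO. With only the groups compared it went from 5 to 3 in naive LBRKO and from 3 to 0 for WT EpiLC against naive. On the spike-in scale naive LBRKO went from 0 to 1 with a pseudocount equal to the median family, all families, the spike-in factor applied to reads, or the highest copy left out, and the factor applied to reads also gave 1 in EpiLC LBRKO and in WT EpiLC against naive. All families gave 2 for the stage difference of TKO. Leaving out 1 library gave 0 to 1 (naive LBRKO, spike-in), 1 to 2 (EpiLC LBRKO, relative), 0 to 5 (EpiLC TKO, spike-in), 1 to 3 (WT stage, relative) and 1 to 2 (stage difference of TKO). It also gave 4 to 6 in naive LBRKO (main fit 5) and 4 to 6 in naive TKO (6) on the relative scale. In naive QKO it gave 4 to 5 (6) on that scale. On the spike-in scale it gave 4 to 7 in naive TKO (5) and 6 to 7 in EpiLC QKO (7).

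These single values of GSAT_MM and SYNREP_MM turned in sign, none of them past the threshold. GSAT_MM in naive LBRKO was 0.0017 on the spike-in scale with the factor applied to reads. SYNREP_MM in naive QKO was -0.058 with the median over copies and -0.047 with the mean-copy scaling, in EpiLC TKO -0.24 with the median over copies and -0.0097 without the highest copy, and its LBRKO stage difference was -0.27 with the median over copies. Leaving out 1 library moved GSAT_MM from -0.50 to 0.00043 (naive LBRKO), -0.092 to 0.036 (EpiLC QKO) and -0.44 to 0.057 (LBRKO stage difference), and SYNREP_MM from -0.034 to 0.14 (EpiLC TKO) and -0.22 to 0.27 (LBRKO stage difference), all relative.

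Replicate numbers are shared between groups, but of 84 same-numbered LAP2B pairs 19 correlated over 0.1 (range -0.33 to 0.32), so the numbers were not taken to pair samples in general. In 1 of 28 group pairs, naive QKO with naive WT, all 3 same-numbered pairs did (0.15, 0.27 and 0.20). The replicate block ended the calls of GSAT_MM in naive QKO (relative, adjusted p = 0.053) and SYNREP_MM in naive TKO (spike-in, adjusted p = 0.062) and called ZP3AR in WT LMNB1 EpiLC against naive (spike-in, 0 to 1 called, adjusted p = 0.0030). Counting error was small for GSAT_MM and SYNREP_MM, and 3 libraries per group limit every test. The GSAT_MM share of repeat-table signal fell with depth in some groups. In naive LBRKO cells it was 1.13% in the shallowest library, then 0.847%, and 0.570% in the deepest. In EpiLC IGG libraries it was 3.20% in the shallowest and 1.93% in the deepest. Naive WT LAP2B libraries showed no such order, with 0.839% in the shallowest, then 1.29%, and 0.993% in the deepest. In naive TKO cells the shallowest library, replicate 2, had 1.73%, against 1.32% in each of the others. The GSAT_MM and SYNREP_MM calls in naive TKO cells were lost without that library, as given above. Whether depth bears on the levels of these families was not tested.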
